A study of Mus musculus with 4 samples.

Results

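The 32 genes described here serve the synthesis, uptake, intracellular transport, sensing, export and storage of cholesterol. They were chosen by name, with earlier results of these data known. Each of the 32 symbols matched 1 gene among the 55416 genes of the annotation. By role, 7 belong to the mevalonate pathway, 11 to the conversion of farnesyl diphosphate to cholesterol, 4 to uptake and transport, 5 to the sterol sensor and 5 to export and storage. RNA was sequenced from C2C12, a mouse myoblast line of dividing muscle precursors, 24 h after transfection with 3 µg of DNA. The cells had received DNA for K97E lamin A, a mutant of dilated cardiomyopathy (2 libraries), or for wild-type lamin A (2 libraries). Cells of both groups carry their own Lmna gene and were transfected with lamin A DNA, and untransfected cells are not part of the comparison. The promoter of the transfected DNA and the share of cells that took it up are not given in the sources used here. The titles of the K97E samples write C1C12, while their cell line field gives C2C12. The labels call the libraries biological replicates but do not say whether they came from separate cultures, so the p-values reflect only how far these 4 libraries spread, and that spread may be technical.

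Animal cells build cholesterol from acetyl-CoA through mevalonate, isopentenyl and farnesyl diphosphate, squalene and lanosterol. When sterols in the endoplasmic reticulum are scarce, SCAP carries the membrane-bound SREBP transcription factors to the Golgi apparatus, where they are cut, and their released domain enters the nucleus and activates genes of synthesis and uptake. INSIG proteins hold SCAP back when sterols are plentiful. The liver X receptors (LXRs) respond to oxysterols and activate genes of cholesterol export. In bulk RNA such as this, fewer cells of a type and less RNA per cell cannot be told apart.

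The libraries held about 115600000 and 107800000 estimated reads on transcripts with K97E, and 89610000 and 106400000 with wild-type lamin A. Between 14463 and 14684 genes reached 1 TPM (transcripts per 1000000, a level per length) in each library. Over the 16304 genes tested, the Pearson correlation of log2 levels was 0.9911 between the K97E libraries, 0.9849 between the wild-type libraries and 0.9866 to 0.9895 between libraries of different groups. Lmna stood at 660 and 629 TPM in the K97E libraries, against 558 and 596 TPM with wild-type lamin A. These reads may include some from the transfected DNA, so Lmna does not check the labels. Of 9 myoblast markers 8 reached a mean of 0.5 TPM, and their summed level was 761.2 and 750.8 TPM with K97E against 722.5 and 863.2 TPM with wild-type lamin A. Of 9 markers of differentiated muscle 2 reached that mean, with Myh1 at 0 in every library. Their sum was 2.69 and 2.64 TPM with K97E against 2.62 and 4.99 TPM with wild-type lamin A, so wild-type replicate 2 stood highest in both lists. Macrophage markers summed to between 4.39 and 7.47 TPM over the libraries, with Adgre1 at 0. Adipocyte markers summed to between 6.98 and 9.26 TPM, with Cidec at 0, and endothelial markers to between 17.4 and 20.7 TPM. Each of these 3 sums came mostly from 1 gene. These were Cd68 (3.17 to 5.48 TPM), Pparg (6.48 to 8.80 TPM) and Cdh5 (17.1 to 20.3 TPM). No gene was matched to the listed markers Myh4 (differentiated muscle), Lep (adipocyte), Kdr and Tie1 (endothelial). The part of these marker levels in the results below was not tested.

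Genes of cholesterol synthesis tended to stand higher in cells given K97E, and so did sensor genes. The 3 measured genes of export and storage did not, nor did those of uptake and transport apart from Stard4. In a wider list with LXR partners and export genes, described below, 10 of 13 measured genes were higher on average with K97E. Over all genes tested, 49.5% were higher on average. All 18 synthesis genes had a positive log2 difference (K97E minus wild type), with a median of 0.23, against a median of -0.0017 over all genes tested. In 15 of the 18, both K97E libraries lay above both wild-type libraries, against 16.3% of all genes. After scaling the margin was narrow for Sc5d, Cyp51 and Nsdhl. No single gene of the 32 passed the test. With limma and Benjamini-Hochberg adjustment over all 16304 genes, the adjusted p of the 30 measured members lay between 0.965 and 0.993. The differences between steps were not tested. That synthesis genes were higher was known from these data when the list was drawn up, so its counts are a description.

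The counts can be read against all genes. At an adjusted p under 0.05, 0.00613% of the genes tested were higher with K97E (1 gene, none of the 32) and 0% were lower. At an unadjusted p under 0.05, 9 of the 30 measured members were higher and 0 lower, where 1.14% of all genes were higher (186) and 2.54% lower (414). Both K97E libraries lay above both wild-type libraries for 19 of the 30, against 16.3% of all genes, and below them for 0 of the 30, against 16.8% of all genes. A positive difference was seen for 24 of the 30, against 49.5% of all genes. The count of 9 members at an unadjusted p under 0.05 fell when either K97E library or wild-type replicate 1 was left out. It rose without wild-type replicate 2, where the count over all genes rose as well. The split of the unadjusted calls over all genes depended on the scaling. It was 390 higher and 280 lower with unscaled TPM, and 271 higher and 327 lower with unscaled FPKM, another level per length and depth.

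**Figure D1:**
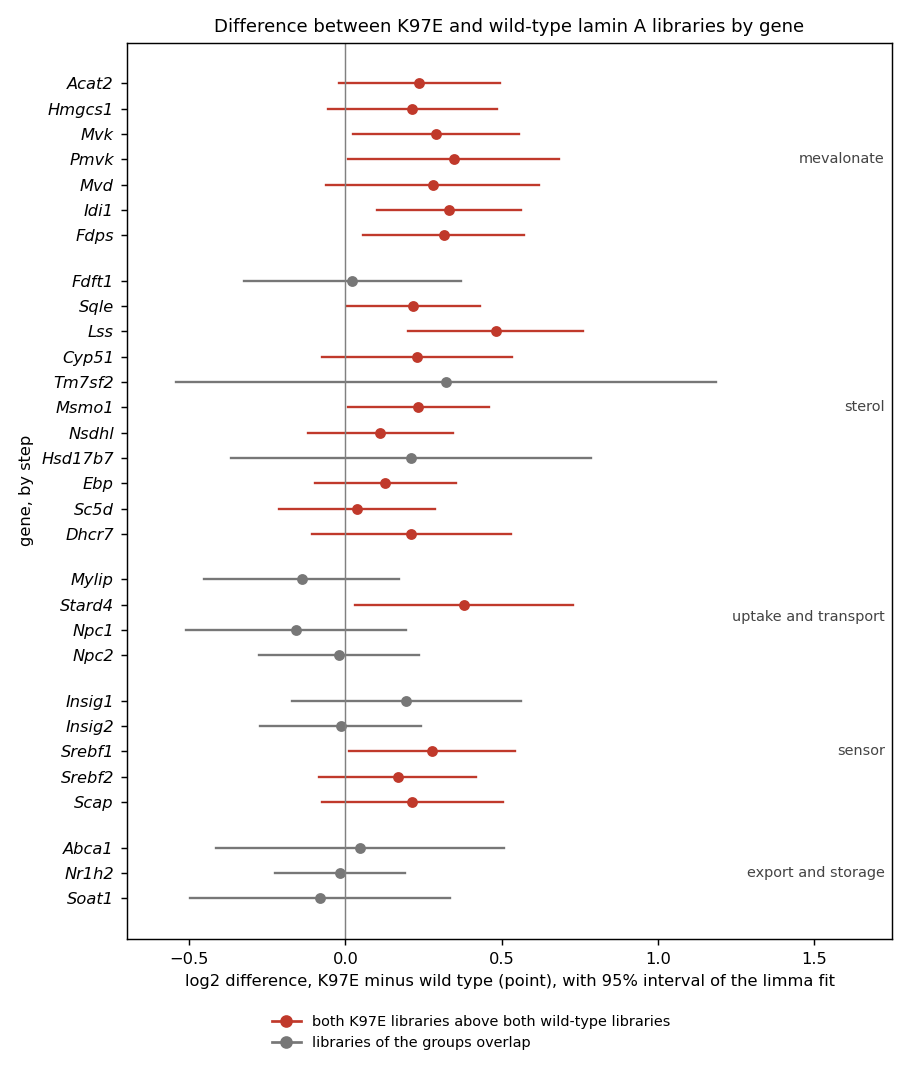
Log2 difference (K97E minus wild type) of each of the 30 measured members, by step, with the 95% interval of the limma fit; red marks members whose K97E libraries both lay above both wild-type libraries. All 18 synthesis genes lie right of 0, while 3 of 4 members of uptake and transport and 2 of 3 of export and storage lie left of it.

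Cholesterol synthesis genes are known as SREBP targets, and NF-Y, a factor that acts together with SREBP, binds CCAAT boxes, so the proximal promoters were read for these motifs. The RefSeq table (mouse build GRCm38.p6, another build than that of the expression files) held promoters of 26 of the 32 members, 35 in all, each from 250 bases before to 50 bases after a start. It had no entry for Abcg1, Sqle, Fdps, Npc1, Stard4 and Fdft1. The 200 bases before the start are printed for 5 members, 5′ to 3′ on the gene's strand. Capitals mark CCAAT on either strand (written ATTGG where it lies on the other strand) and the sterol regulatory element core TCACCCCAC. Hmgcs1 is shown as the only member of the 26 with that core. Mvk is shown for its 5 CCAAT boxes, Idi1 and Lss as the synthesis genes with the smallest p in the mevalonate and the sterol step, and Nr1h2 as an export regulator with no match. They lie at chr13:119690151-119690350 (plus strand, Hmgcs1), chr5:114444069-114444268 (plus, Mvk), chr13:8885406-8885605 (plus, Idi1), chr10:76531405-76531604 (plus, Lss) and chr7:44553966-44554165 (minus, Nr1h2).
Hmgcs1: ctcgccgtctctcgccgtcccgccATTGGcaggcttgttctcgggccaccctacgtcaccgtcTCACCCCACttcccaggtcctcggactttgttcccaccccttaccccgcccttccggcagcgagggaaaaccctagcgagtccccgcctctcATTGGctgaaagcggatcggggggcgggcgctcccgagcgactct
Mvk: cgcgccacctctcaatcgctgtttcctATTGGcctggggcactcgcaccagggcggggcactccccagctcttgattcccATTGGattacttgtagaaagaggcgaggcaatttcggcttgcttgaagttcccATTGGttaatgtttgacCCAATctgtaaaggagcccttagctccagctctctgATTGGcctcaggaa
Idi1: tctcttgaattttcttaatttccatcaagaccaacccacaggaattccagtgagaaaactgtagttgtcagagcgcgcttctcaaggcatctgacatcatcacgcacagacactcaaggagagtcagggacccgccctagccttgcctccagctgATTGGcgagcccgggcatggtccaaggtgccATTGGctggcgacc
Lss: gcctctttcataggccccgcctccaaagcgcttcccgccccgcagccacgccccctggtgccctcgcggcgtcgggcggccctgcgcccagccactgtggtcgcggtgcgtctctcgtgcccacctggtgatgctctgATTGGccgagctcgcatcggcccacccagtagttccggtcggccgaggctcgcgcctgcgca
Nr1h2: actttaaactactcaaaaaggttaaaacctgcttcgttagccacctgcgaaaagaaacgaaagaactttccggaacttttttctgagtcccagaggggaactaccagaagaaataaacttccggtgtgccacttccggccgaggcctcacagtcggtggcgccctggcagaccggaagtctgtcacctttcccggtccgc

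Searched on both strands, the letters CCAAT occurred in 22 of the 35 member promoters (62.9%), against 12289 of all 32851 promoters of the same length (37.4%). In the mevalonate and sterol steps 14 of 18 promoters held them (77.8%), covering 14 of the 15 synthesis genes with a promoter in the table. Acat2 was the synthesis gene without a match in this window. In uptake and transport 2 of 2 promoters held CCAAT, those of Mylip and Npc2, whose levels were not higher with K97E after scaling. In the sensor step 5 of 10 promoters held CCAAT, and in export and storage 1 of 5, that of Soat1. The core TCACCCCAC occurred in 1 of the 35 (2.86%), that of Hmgcs1, starting at position -137 from the gene's start, against 181 of all promoters (0.551%). With 1 base of the core free (TCACNCCAC) the count was again 1 of 35, the same Hmgcs1 match, against 408 of all (1.24%). The E-box CACGTG, which reads the same on both strands, occurred in 7 of 35 (20.0%), against 2349 of all (7.15%). A match is a run of letters and no measure of binding, and several members count with 2 or 3 promoters.

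The 7 genes of the mevalonate pathway stood higher in both K97E libraries than in both wild-type libraries without exception, against 16.3% of all genes. Their log2 differences lay between 0.21 and 0.35. Their summed level was 319 and 328 TPM in the K97E libraries, against 252 and 259 TPM in the wild-type libraries. The median difference was 0.29, and 4 of the 7 had an unadjusted p under 0.05, where 1.14% of all genes were higher at that p. Idi1, the isomerase that interconverts isopentenyl and dimethylallyl diphosphate, had the smallest p of the 7. It stood at 24.81 and 24.84 TPM in the K97E libraries, against 18.80 and 18.93 TPM in the wild-type libraries. Replicates of Idi1 were almost equal and the groups lay well apart, with a log2 difference of 0.33 (SE 0.09), a fold of 1.26. The limma unadjusted p was 0.0133 and the adjusted p 0.965. Idi1 lies on GRCm39 chromosome 13, 8935537 to 8942487, on the plus strand.

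Fdps, the synthase of farnesyl diphosphate, from which the sterol and isoprenoid branches part, was the most abundant synthesis gene. It stood at 128 and 138 TPM in the K97E libraries, against 98.0 and 107.5 TPM in the wild-type libraries. The lower K97E library lay above the higher wild-type library, and the log2 difference was 0.31 (SE 0.10, limma unadjusted p = 0.0254, adjusted p = 0.965). Mvk, the mevalonate kinase, stood at 19.7 and 18.04 TPM with K97E, against 13.9 and 15.6 TPM with wild-type lamin A. The groups did not overlap, and the log2 difference was 0.29 (SE 0.11, limma unadjusted p = 0.0372, adjusted p = 0.965). Pmvk, the phosphomevalonate kinase that acts after it, stood at 19.0 and 22.3 TPM with K97E, against 16.4 and 14.6 TPM with wild-type lamin A. Its libraries spread more, and the log2 difference was 0.35 (SE 0.14, limma unadjusted p = 0.0460, adjusted p = 0.965), or 0.20 without K97E replicate 2.

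The other members of the pathway missed an unadjusted p of 0.05 but kept the groups apart. Acat2, a thiolase that joins acetyl-CoA units, averaged 46.8 ± 2.3 TPM with K97E and 38.2 ± 3.8 TPM with wild-type lamin A (SD, n = 2 each). Hmgcs1, the synthase of HMG-CoA whose promoter is printed above, stood at 69.0 and 69.9 TPM with K97E, against 62.1 and 53.2 TPM with wild-type lamin A. Mvd, the decarboxylase that makes isopentenyl diphosphate, stood at 9.73 and 9.96 TPM with K97E, against 7.001 and 8.48 TPM with wild-type lamin A. Wild-type replicate 1 was the lowest library for 5 of the 7 genes and wild-type replicate 2 for the other 2. K97E replicate 2 was the highest for 5 of the 7.

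**Figure D2:**
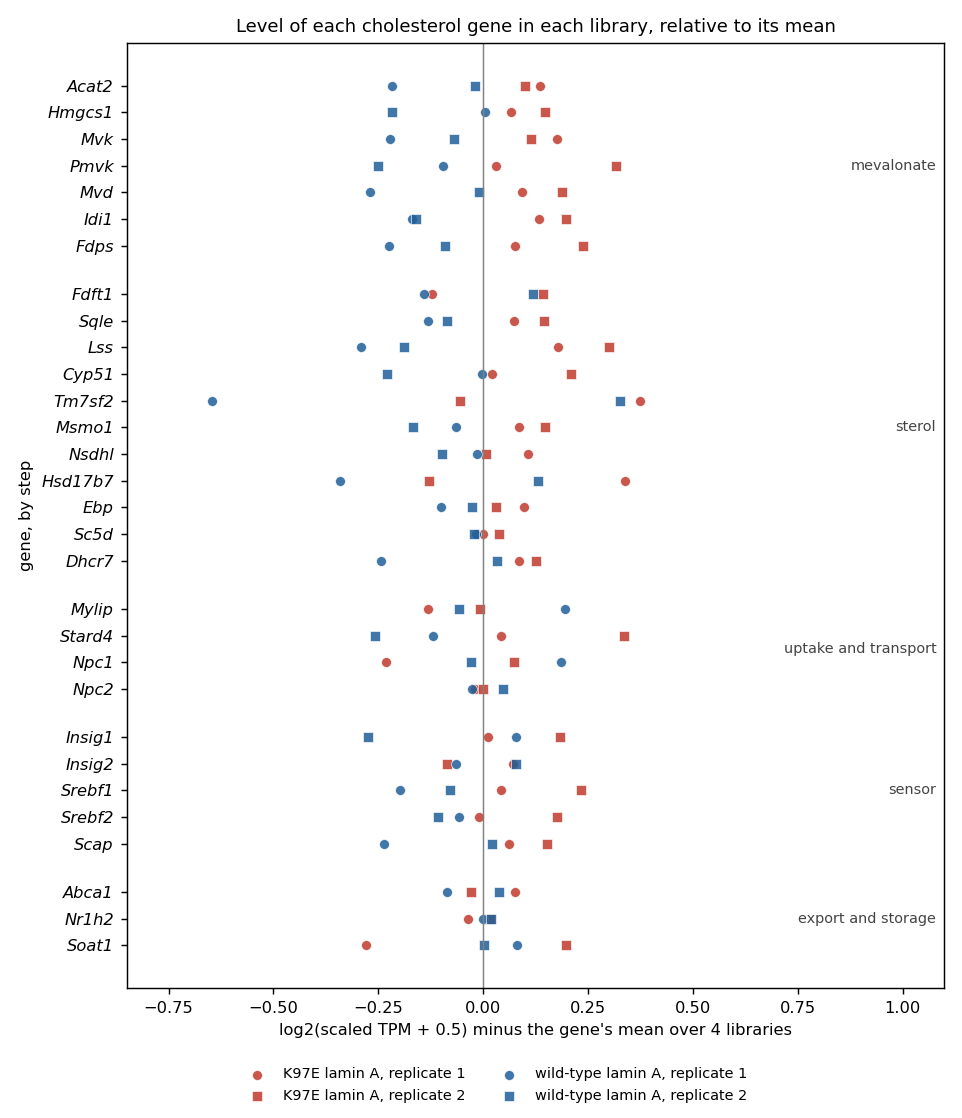
Level of each measured member in each of the 4 libraries, as log2(scaled TPM + 0.5) minus the gene's mean over the libraries, by step; K97E libraries are red and wild-type libraries blue, with circles for replicate 1 and squares for replicate 2. In the mevalonate step the K97E points lie right of the wild-type points for all 7 genes, while in export and storage the points of both groups mix.

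In the sterol step, from farnesyl diphosphate to cholesterol, all 11 genes had a positive difference, from 0.02 to 0.48, with a median of 0.21. The groups did not overlap for 8 of the 11, all higher with K97E, against 16.3% of all genes. An unadjusted p under 0.05 was reached by 3 of the 11, where 1.14% of all genes were higher at that p. Summed levels were 383 and 382 TPM in the K97E libraries, against 319 and 329 TPM in the wild-type libraries. The median depended on wild-type replicate 1, without which it was 0.09. Over both steps the summed level of the 18 synthesis genes was 702 and 710 TPM with K97E, against 571 and 588 TPM with wild-type lamin A. The highest library was a K97E library for all 18, replicate 2 for 12 of them and replicate 1 for 6. Wild-type replicate 1 was the lowest library for 12 and wild-type replicate 2 for 6. Over all 16304 genes tested, wild-type replicate 1 was the lowest library for 5409 and the highest for 5381, in both cases more than any other library.

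Lss, the cyclase that folds oxidosqualene into lanosterol, had the largest difference of the 30 measured members. It stood at 14.0 and 14.7 TPM in the K97E libraries, against 9.38 and 10.1 TPM in the wild-type libraries. The groups lay apart by far more than either pair of replicates spread. The log2 difference was 0.48 (SE 0.11), a fold of 1.395, with a limma unadjusted p of 0.00610, rank 74 of all genes, and an adjusted p of 0.965. At least 2321 estimated reads lay on Lss in each library. Lss lies on GRCm39 chromosome 10, 76367422 to 76392972, on the plus strand.

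Sqle, the squalene epoxidase just before Lss in the pathway, stood at 109.1 and 109.6 TPM with K97E, against 88.9 and 91.7 TPM with wild-type lamin A. Its log2 difference was 0.22 (SE 0.09, limma unadjusted p = 0.0471, adjusted p = 0.965). Msmo1, an oxidase that removes methyl groups from sterol intermediates, stood at 52.9 and 52.8 TPM with K97E, against 44.7 and 41.6 TPM with wild-type lamin A. Its difference of 0.23 (SE 0.09) had a limma unadjusted p of 0.0445 and an adjusted p of 0.965. Cyp51, the lanosterol demethylase, stood at 42.0 and 45.8 TPM with K97E, against 38.8 and 33.1 TPM with wild-type lamin A. The groups did not overlap, and the log2 difference was 0.23 (SE 0.12), or 0.12 with replicate 2 of the wild type left out, and 0.13 with K97E replicate 2 left out. Exons of Cyp51 overlap exons of Akap9 on the other strand, and the authors' quantification was run without a strand option, so reads can be credited to either gene.

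The remaining 7 sterol genes had limma unadjusted p above 0.05, and their differences ran between 0.02 and 0.32. Dhcr7, a reductase of the end of the pathway, stood at 16.7 and 16.5 TPM with K97E, against 12.4 and 15.1 TPM with wild-type lamin A. Nsdhl and Ebp, a dehydrogenase and an isomerase of sterol intermediates, differed by 0.11 and 0.13, with groups apart. The value of Nsdhl was 0.06 without K97E replicate 1 and 0.07 without wild-type replicate 2. Sc5d, a desaturase, stood at 13.2 and 13.0 TPM with K97E, against 12.3 and 12.2 TPM with wild-type lamin A, a difference of 0.04 that was 0.016 without K97E replicate 2. Groups overlapped for 3 genes. Fdft1, the squalene synthase at the branch point to sterols, stood at 43.3 and 49.9 TPM with K97E, against 40.2 and 48.1 TPM with wild-type lamin A. Its interval of the log2 difference ran from -0.32 to 0.37, and its exons overlap those of Ctsb on the other strand. Tm7sf2, a sterol reductase, was the least abundant synthesis gene, at 5.52 and 3.79 TPM with K97E against 2.30 and 5.00 TPM with wild-type lamin A. Its exons overlap those of Vps51 on the same strand. Hsd17b7, a ketoreductase, stood at 8.80 and 5.94 TPM with K97E, against 4.98 and 7.09 TPM with wild-type lamin A. For Tm7sf2 and Hsd17b7 the replicates spread more than the group means differed.

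The transcripts behind a gene's value differed between libraries. StringTie assigns the reads of shared exons to transcripts by a model, and its part in these differences was not tested. For Lss, the 22-exon transcript ENSMUST00000048678 stood at 5.70 and 9.56 TPM with K97E, against 2.62 and 3.34 TPM with wild-type lamin A. The longer ENSMUST00000160671 stood at 6.09 and 3.10 TPM with K97E, against 5.08 and 5.14 TPM with wild-type lamin A, so its groups overlapped. For Acat2, ENSMUST00000007005 was lower with K97E, at 33.6 and 25.1 TPM against 33.7 and 37.1 TPM with wild-type lamin A. The shorter ENSMUST00000159697 was at 14.5 and 15.3 TPM with K97E, against 1.79 and 3.75 TPM with wild-type lamin A, which was 29.9 and 33.8% of the gene's TPM with K97E and 5.03 and 9.17% with wild-type lamin A. For Dhcr7, ENSMUST00000073878 stood at 14.8 and 14.5 TPM with K97E, against 7.14 TPM in wild-type replicate 1 and a listed 0 in wild-type replicate 2. In that library ENSMUST00000124340 was credited with 7.05 TPM and ENSMUST00000141916 with 5.93 TPM, and the gene's sum was the closest of the wild-type libraries to K97E. With the most abundant transcript alone, 13 of the 18 synthesis genes had a positive difference, and Lss differed by 1.14 and Acat2 by -0.34.

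**Figure D3:**
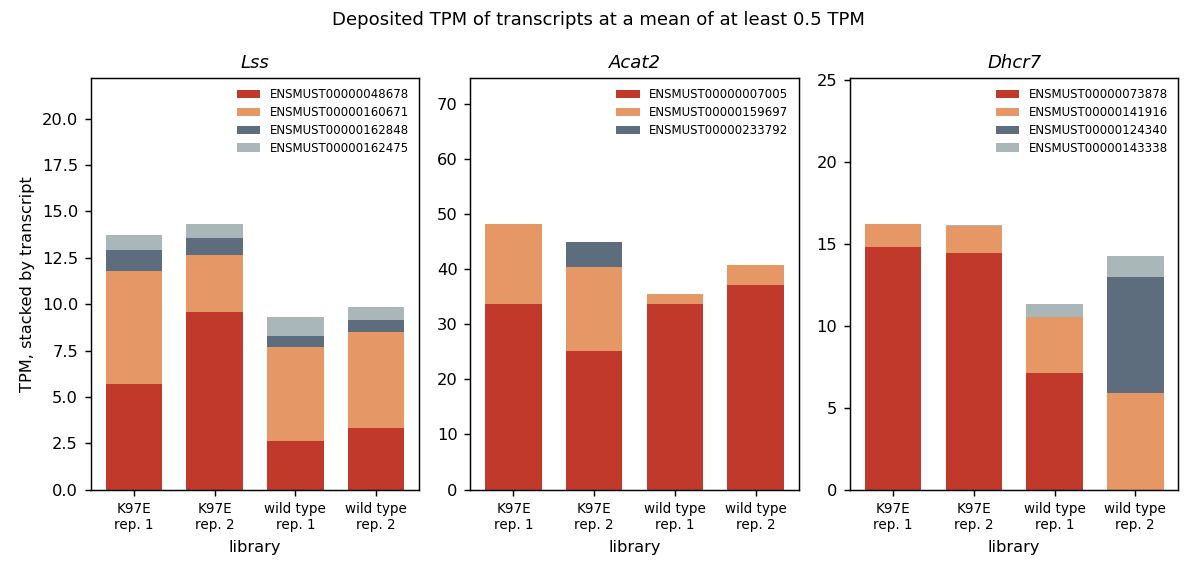
Deposited TPM of the transcripts of 3 synthesis genes in each library, stacked, for transcripts at a mean of at least 0.5 TPM; K97E libraries stand left of wild-type libraries. The stack of Lss is taller in both K97E libraries, and the division between its transcripts differs between libraries of the same group.

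Coverage of exons was scaled by median-of-ratios factors of the estimated reads and summed over a gene's transcripts that share an exon's exact bounds, so it still depends in part on how reads were divided where bounds differ. Of 164 exons in the most abundant transcripts of the 18 synthesis genes, 63.4% had both K97E libraries above both wild-type libraries, and 1 had both below. Over the 141319 exons of all genes tested, taken the same way, these shares were 22.8% above and 11.8% below. A positive log2 difference was seen at 150 of the 164 (91.5%), against 58.2% of all exons. With the coverage of all overlapping exons of the gene counted, weighted by the overlap, the synthesis share above was again 63.4%, against 22.9% of all exons. Exons of 1 gene share its reads and libraries and are not replicates of each other. By step, both K97E libraries were above at 46 of 60 mevalonate exons (76.7%), 58 sterol exons (55.8%), 4 of 42 exons of uptake and transport (9.52%), 47 of 72 sensor exons (65.3%) and 18 of 76 exons of export and storage (23.7%). In export and storage 16 of those 18 exons belong to Abca1, and without it the share was 7.69%. All 22 Lss exons had a positive difference, with both K97E libraries above at 18 of them and a median of 0.58. Coverage of Lss exon 6 was 72.0 and 85.7 reads per base with K97E, against 23.6 and 47.7 with wild-type lamin A. At exon 17 it was 57.4 and 57.2 with K97E, against 59.2 and 49.9 with wild-type lamin A, where the groups overlapped. Dhcr7 had both K97E libraries above at 9 of 9 exons, with a median of 0.73 that was 0.44 with all overlapping exons counted, against 0.21 for the gene. Sc5d had both above at 0 of 6, with a median difference of -0.04.

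**Figure D4:**
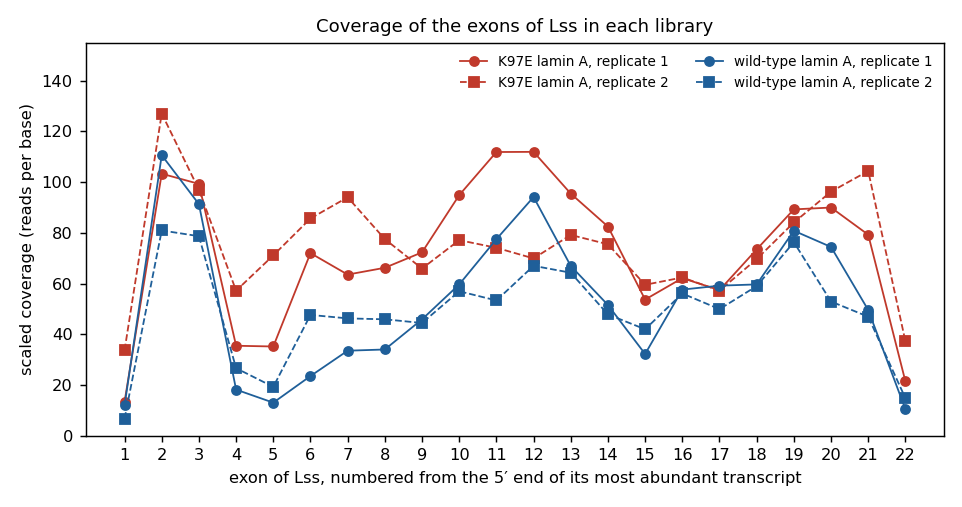
Scaled coverage (reads per base) of the 22 exons of the most abundant Lss transcript in each library, exons numbered from the 5′ end. Both K97E lines lie above both wild-type lines at 18 exons, and lines of the groups cross at exons 2, 11, 12 and 17.

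Among genes of uptake and transport, Stard4 stood apart from the others. Stard4, a carrier that moves sterol between membranes in the cytosol and a known SREBP target, stood at 13.1 and 15.4 TPM with K97E, against 10.9 and 9.85 TPM with wild-type lamin A. The groups did not overlap, and the log2 difference was 0.38 (SE 0.14, limma unadjusted p = 0.0381, adjusted p = 0.965), or 0.23 without K97E replicate 2. The other 3 had overlapping groups. Npc1, the membrane protein that exports cholesterol from lysosomes, stood at 29.3 and 34.7 TPM with K97E, against 36.9 and 31.8 TPM with wild-type lamin A. Its difference of -0.16 had an interval from -0.51 to 0.19. With a K97E library left out, it was -0.0049 (replicate 1) or -0.31 (replicate 2). With a wild-type library left out, it was -0.05 (replicate 1) or -0.27 (replicate 2). Exons of Npc1 overlap those of Rmc1 and Gm15956 on the other strand. Npc2, the soluble lysosomal protein that hands cholesterol to Npc1, was the most abundant member, at 641 and 621 TPM with K97E against 599 and 630 TPM with wild-type lamin A. Its scaled difference was -0.02, with an interval from -0.28 to 0.24. Mylip, a ubiquitin ligase that targets lipoprotein receptors for degradation and is induced by LXRs, stood at 18.1 and 18.9 TPM with K97E, against 21.5 and 17.9 TPM with wild-type lamin A. The difference of -0.14 was -0.016 or -0.27 when replicate 1 or 2 of the wild type was left out, and -0.08 without K97E replicate 1. The median of the 4 was -0.08. It was -0.0076 without K97E replicate 1, and -0.03 or -0.125 when replicate 1 or 2 of the wild type was left out.

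The sensor genes had a median difference of 0.20, or 0.11 without K97E replicate 2. Srebf1, which encodes the SREBP forms linked mainly to fatty acid synthesis, stood at 54.1 and 59.0 TPM with K97E, against 42.9 and 46.6 TPM with wild-type lamin A. The groups did not overlap, with a log2 difference of 0.28 (SE 0.11, limma unadjusted p = 0.0435, adjusted p = 0.965), or 0.18 without K97E replicate 2. Both K97E libraries lay above at 17 of the 19 exons of its main transcript. Exons of Srebf1 overlap those of Rai1 on the other strand. Srebf2, whose product drives mainly cholesterol synthesis, stood at 126 and 137 TPM with K97E, against 114 and 110 TPM with wild-type lamin A. Its groups did not overlap, and the difference was 0.17, with an interval from -0.08 to 0.42. It was 0.07 without K97E replicate 2 and 0.26 without K97E replicate 1. Scap, the escort of the SREBPs, stood at 52.4 and 53.4 TPM with K97E, against 39.9 and 47.8 TPM with wild-type lamin A. Its groups were apart as well, and the difference was 0.21 (SE 0.12). It was 0.08 or 0.34 when replicate 1 or 2 of the wild type was left out.

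The INSIG genes encode the proteins that retain SCAP. Insig1, itself a known SREBP target, stood at 29.6 and 32.002 TPM with K97E, against 29.2 and 22.7 TPM with wild-type lamin A. Its groups were apart in deposited TPM by a narrow margin and overlapped after scaling, with a difference of 0.20 that was 0.37 or 0.018 when replicate 1 or 2 of the wild type was left out, and 0.11 without K97E replicate 2. Insig2 stood at 70.7 and 60.5 TPM with K97E, against 60.4 and 66.8 TPM with wild-type lamin A. Its difference was -0.02, with an interval from -0.27 to 0.24 and overlapping groups.

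**Figure D5:**
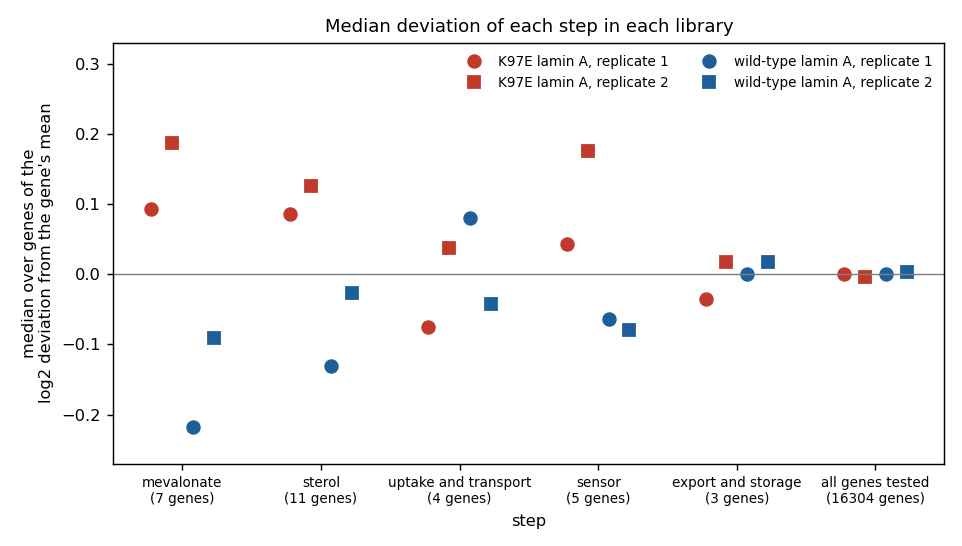
Median over a step's measured genes of the log2 deviation from each gene's mean, in each library, with the K97E libraries left of the wild-type libraries. The K97E medians are 0.0925 and 0.187 in the mevalonate step, against -0.2176 and -0.0905 with wild-type lamin A, while in export and storage all 4 libraries lie between -0.0359 and 0.0179.

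The 3 measured genes of export and storage had overlapping groups after scaling. Nr1h2, the widely expressed LXR, stood at 70.2 and 69.7 TPM with K97E, against 67.7 and 68.5 TPM with wild-type lamin A. These deposited values were apart, but after scaling they overlapped, with a difference of -0.02 and an interval from -0.23 to 0.19. Soat1, which esterifies cholesterol for storage, stood at 72.7 and 96.97 TPM with K97E, against 87.7 and 83.0 TPM with wild-type lamin A. The K97E replicates spread on both sides of the wild-type pair, and the difference of -0.08 was 0.16 without K97E replicate 1 and -0.32 without K97E replicate 2. Abca1, the transporter that exports cholesterol to lipid-poor apolipoproteins and a known LXR target, was low in every library. It stood at 1.46 and 1.27 TPM with K97E, against 1.18 and 1.33 TPM with wild-type lamin A. Abcg1, another export transporter and LXR target, was at 0.192 and 0.140 TPM with K97E, against 0.156 and 0.146 TPM with wild-type lamin A. Nr1h3, the other LXR, was at 0.124 and 0.180 TPM with K97E, against 0.107 and 0.109 TPM with wild-type lamin A, so its deposited values were apart. Abcg1 and Nr1h3 missed the mean of 0.5 TPM and were not tested, with as few as 38.6 and 9.02 estimated reads in a library. The median of the 3 measured genes was -0.02.

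Neighbouring pathways were described with lists of their own, and none of their genes passed the test over all genes. These lists were chosen with earlier results of these data known, so their counts are a description. Over all genes tested, 49.5% had a positive difference. Among genes that SREBPs regulate in fatty acid synthesis, 10 of 12 measured had a positive difference, at a median of 0.19. Groups were apart and higher in K97E for 7 of the 12, against 16.3% of all genes, and lower for 0, against 16.8%. An unadjusted p under 0.05 was reached by 2, both higher, against 1.14% of all genes. Fasn, the fatty acid synthase, stood at 88.7 and 86.9 TPM with K97E, against 62.0 and 73.7 TPM with wild-type lamin A, a log2 difference of 0.32 (SE 0.11, limma unadjusted p = 0.0316, adjusted p = 0.965). Scd2, a desaturase of fatty acids, stood at 329 and 341 TPM with K97E, against 270 and 261 TPM with wild-type lamin A, a difference of 0.28 (SE 0.10, limma unadjusted p = 0.0320, adjusted p = 0.965). Of 11 genes that use farnesyl or other isoprenoid diphosphates for other products, 6 had a positive difference, at a median of 0.02. Groups were apart for 2 that were higher and 3 that were lower with K97E, against 16.3% and 16.8% of all genes. Fntb, a subunit of farnesyltransferase, stood at 14.5 and 13.8 TPM with K97E, against 11.8 and 11.4 TPM with wild-type lamin A. Ggps1, which makes geranylgeranyl diphosphate, stood at 30.7 and 29.9 TPM with K97E, against 32.6 and 30.2 TPM with wild-type lamin A.

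Of 14 genes of SREBP cleavage and sterol-regulated protein degradation, 9 had a positive difference and 0 an unadjusted p under 0.05, at a median of 0.07. Groups were apart and higher with K97E for 5 of the 14, against 16.3% of all genes, and lower for 0, against 16.8%. Mbtps1, a protease that cuts SREBPs in the Golgi apparatus, stood at 58.0 and 55.7 TPM with K97E, against 50.1 and 50.8 TPM with wild-type lamin A. Syvn1, a ubiquitin ligase of the endoplasmic reticulum, differed by 0.14. Of 15 measured genes of lipoprotein receptors and sterol transport, 6 had a positive difference, at a median of -0.03. Groups were apart for 1 that was higher and 2 that were lower with K97E, against 16.3% and 16.8% of all genes. Stard5, a sterol-binding protein, differed by -0.21 and Lipa, the lysosomal lipase that frees cholesterol from its esters, by -0.15, both with groups apart and lower with K97E. Of 13 measured genes for LXR partners, oxysterol enzymes, export and ester storage, 10 had a positive difference, against 49.5% of all genes. Their median was 0.15. Groups were apart for 4 that were higher and 1 that was lower with K97E, against 16.3% and 16.8% of all genes. Rxrb, a partner receptor of the LXRs, differed by 0.18. Ch25h, the enzyme that makes an oxysterol known to suppress SREBP cleavage, was lower in both K97E libraries. It stood at 26.4 and 31.0 TPM with K97E, against 41.1 and 43.5 TPM with wild-type lamin A. Its log2 difference was -0.61 (SE 0.12, limma unadjusted p = 0.00330, adjusted p = 0.965), and its exons overlap those of Gm26902 on the other strand.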

How the data were processed

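The authors deposited 1 transcript file per library. Per the file headers, the values come from StringTie 2.1.7, set to estimate annotated transcripts only, with Ensembl release 104 annotation, GRCm39 and no strand option. Each file gives coverage, FPKM and TPM for each transcript as other attributes, and the submitters' processing notes also name HISAT2, SAMtools, FastQC and DESeq2. Per the labels' protocols, the library kit was stranded and reads were pairs of 100 bases. The other values computed here start from those deposited attributes. They hold no counts, so estimated reads (coverage times length over read length) serve as the depth, without counting intervals.

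A gene's value was the sum of TPM over its transcripts. Values were divided by median-of-ratios factors (1.043 and 0.997 for K97E, 0.98 and 0.98 for wild type), 0.5 was added, and log2 taken. The scale understates differences of low genes. The 16304 genes of 55416 that averaged 0.5 TPM or more were fitted with limma 3.58.1 in R 4.3.3 (lmFit, eBayes with trend, total degrees of freedom 5.54). Tests were two-sided, p-values were adjusted over all of them by Benjamini-Hochberg, and the threshold was 0.05. An exact permutation test with 2 libraries a group cannot go below 0.333. Printed TPM are as deposited, and differences, intervals and overlap of groups are of scaled values. Tested on simulated data of 16304 genes, the fit called 62 of the 100 given a 2-fold difference and 95 of the 100 given a 4-fold difference, with 8 false calls. Folds as small as those of the members, at most 1.395, were not simulated.

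The members and lists were chosen with earlier results of these data known. All members were accounted for, with every library's value for up to 4 per step by smallest p (all of a step with up to 5 measured), and for other lists the 2 genes with the smallest p. Library values given for further synthesis genes were chosen after their values were seen. Alternatives were other pseudocounts, filters, scalings and weights, the most abundant transcript alone, a replicate block and each library left out. Python 3.11.15 with pandas 2.3.3 read the tables.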

Additional observations from a re-analysis of the deposited data

How the results depend on the processing

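No member passed the test in any of the 17 alternatives. The synthesis genes with a positive difference were 18 of 18 with other pseudocounts, scalings and eBayes settings, voom weights, no filter and both blocks, 17 of 17 with a minimum mean of 5 TPM, and 13 of 18 with the most abundant transcript alone. They were 17 of 18 without either K97E library, 15 of 18 without wild-type replicate 1 and 18 of 18 without wild-type replicate 2. The members higher at an unadjusted p under 0.05 (9) were 2 with eBayes without trend and 5 with the most abundant transcript, where 2 members lay wholly lower with K97E. With the replicate number as a block they were 3 and no gene of all was called. The main fit did not take the numbers as pairs, since the labels do not say what a replicate number shares. Deviations of same-numbered libraries had a correlation of -0.1371, which cannot show whether they were paired. With crossed pairs, chosen after seeing the data, 3 genes higher and 27 lower were called over all genes, and 12 members had an unadjusted p under 0.05. At that p, 461 of all genes were higher and 817 lower, against 186 and 414 in the main fit. Leaving out a library gave 0 to 11 such members and 1 to 4 members wholly lower. The share of synthesis exons apart and higher with K97E was 63.4% both for exons with the same bounds and for all overlapping exons, an alternative added after seeing the data. The cause of these changes was not tested, beyond the fewer libraries in the fit.

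The sterol median (0.21) was 0.27 with TPM as deposited, which moved the median of all genes to 0.05, and 0.0873 to 0.1813 with a library left out. The uptake and transport median (-0.08) was -0.125 to -0.0076 with a library left out. The sensor median (0.20) was 0.1064 to 0.2589 with a library left out. The export and storage median (-0.02) was -0.0498 with a minimum mean of 5 TPM, 0.04 with TPM as deposited, 0.0098 with FPKM, 0.03 with voom weights, and -0.0472 to 0.0079 with a library left out. Differences near 0 changed sign. With TPM as deposited Npc2 differed by 0.0382, Insig2 by 0.0421 and Nr1h2 by 0.0391. With quantile normalization Npc2 differed by 0.0447 and Insig2 by 0.0020, and with FPKM Npc2 by 0.0088, Insig2 by 0.0128 and Nr1h2 by 0.0098. With voom weights Insig2 differed by 0.0313 and Nr1h2 by 0.0276. With the most abundant transcript alone Acat2 differed by -0.3365, Hmgcs1 by -0.1425, Fdft1 by -0.1202, Tm7sf2 by -0.0179, Sc5d by -0.0078 and Insig2 by 0.0352. With a library left out, Hsd17b7 ranged from -0.0293 to 0.4448, Abca1 from -0.0171 to 0.1093, Nr1h2 from -0.0472 to 0.0079, Soat1 from -0.3222 to 0.1576, Fdft1 from -0.1122 to 0.1545, Insig2 from -0.0941 to 0.0609, Tm7sf2 from -0.1688 to 0.8084 and Npc2 from -0.0592 to 0.0158. With 1 library left in a group, it was assumed to vary like the other group. Depth limits Abcg1, Nr1h3 and Tm7sf2 most, with as few as 38.6, 9.02 and 165.2 estimated reads in a library.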
